A study of Saccharomyces cerevisiae with 6 samples.

Results

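HXT1 to HXT10 are 10 hexose transporter genes of Saccharomyces cerevisiae, and all 10 were found by name among the 6400 named genes of the deposited count table. They were compared between 3 cultures of CX01F, a strain evolved on methanol, and 3 cultures of CX01, its parent, in a study of how metabolism was rearranged during adaptation to methanol. Cells of both strains passed from YPD overnight to Delft medium for 16 h and then to Delft medium with 1% methanol and no glucose, in shake flasks at 30 °C and 200 rpm, and were harvested near an OD600 of 1. The genotype label is the same for CX01F and CX01. It lists Paox1-SKL, Pdas1-skl, pDAK, pPYC, sXR, sXDH and sXK with the prefix P., then mMDH3-skl and mACT1-skl with the prefix B., an entry PEX5, the deletions ∆PEX31 and ∆PEX32, and MDH2, cMDH3 and Cnde1 as S.c or S. entries.

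The Hxt proteins are plasma membrane carriers that let hexoses enter the cell by facilitated diffusion. They differ in affinity for glucose and in when they are made: Hxt1 and Hxt3 are low-affinity carriers of glucose-rich medium, Hxt6 and Hxt7 are high-affinity carriers, Hxt2 and Hxt4 are high- or intermediate-affinity carriers induced when glucose is scarce, and Hxt5 is made in slow growth and starvation. The repressor Rgt1, with the corepressors Mth1 and Std1, holds many HXT genes down when no glucose is sensed, and Mig1 and Mig2 repress some of them when glucose is plentiful. No glucose was supplied at harvest in either strain.

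Library totals were 52849030 to 62826253 counts in CX01F and 51537969 to 63183824 in CX01. PEX31 had 0 or 1 count in every library, whereas PEX32, also labelled as deleted, had 167 to 279. Replicates differed by more than sampling noise in every pair within a strain. CX01 replicate 3 stood farthest from its group, with a chi-square per degree of freedom of 12.3 and 18.9 against CX01 replicates 1 and 2, where the other pairs within a strain gave 2.40 to 5.75. The labels give no batch or date, so any difference in how the 2 sets of cultures were handled cannot be told apart from the strain difference.

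The family did not move as a block. Of the 10 genes, all of which passed the filter on low counts, 5 were higher and 3 lower in CX01F by the edgeR quasi-likelihood test at an adjusted p under 0.05, and HXT8 and HXT10 were not called. Across all genes, 91.4% of the 6129 tested genes were called, 45.5% higher and 45.9% lower, so 8 calls of 10 is no more than the background. Scaling by library size only gave 2221 genes higher and 3407 lower over all genes, and 2 members higher and 3 lower. The libraries of the strains did not overlap for 9 of the 10 genes, beside 91.9% of all tested genes. HXT2 and HXT6 were the 2 members called with a change of 2-fold or more, beside 30.6% of all tested genes. The median log2 change of the 10 was 0.15 and their median absolute change 0.27, beside -0.0020 and 0.60 over all tested genes. In these bulk cultures, fewer cells that make an mRNA and less of it per cell cannot be told apart.

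**Figure D1:**
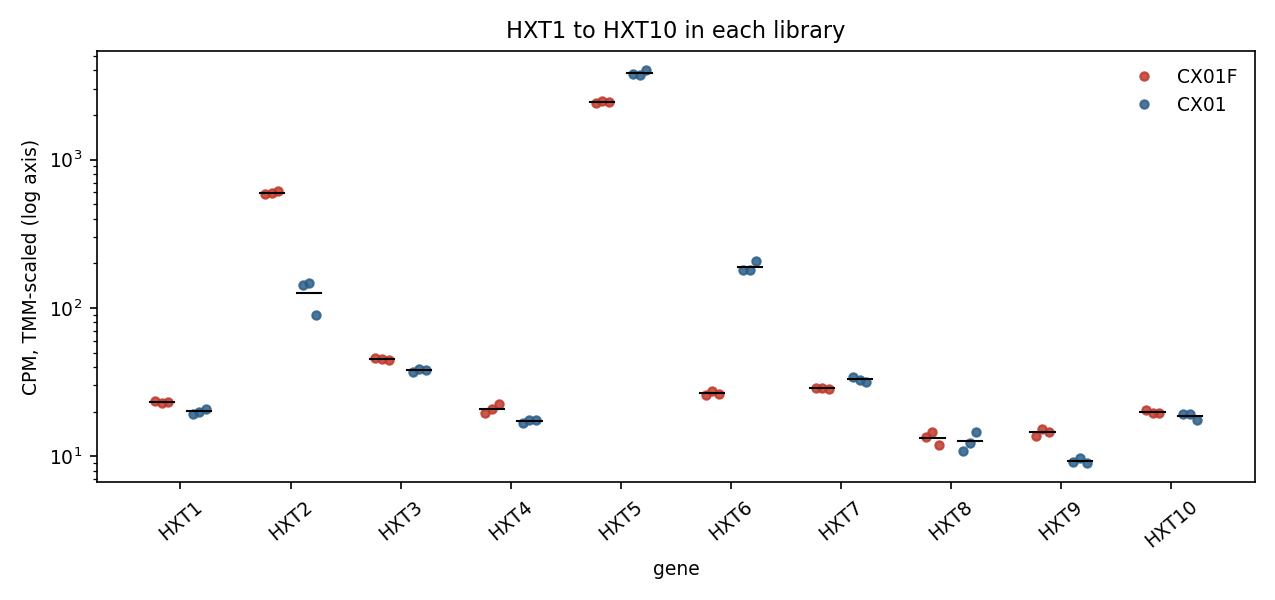
Level of each of HXT1 to HXT10 in CPM (TMM-scaled, log axis) in the 3 CX01F libraries (red, left) and the 3 CX01 libraries (blue, right); each point is a library and each black line the mean of a strain. HXT2 sits at 583 to 611 CPM in CX01F, against 89.5 to 148 CPM in CX01, and HXT6 at 25.7 to 27.7 CPM in CX01F, against 181 to 206 CPM in CX01.

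Among the high- and intermediate-affinity transporters, HXT2 rose and HXT6 fell. HXT2 had 583, 597 and 611 CPM (counts scaled to library size by TMM) in the CX01F libraries, against 143, 148 and 89.5 CPM in CX01. All CX01F libraries lay far above all CX01 libraries, and CX01 replicate 3 was the lowest of the 6. HXT2 was 4.71-fold higher in CX01F (log2 2.24, SE 0.128, edgeR adjusted p = 3.62e-10), and the log2 change ranged from 2.04 to 2.36 when any single library was left out. GAL2, the galactose permease of the same family, was likewise lowest in CX01 replicate 3, at 16.6 CPM beside 42.3 and 38.5 CPM in CX01 replicates 1 and 2. Without CX01 replicate 3 the log2 change of HXT2 was 2.04.

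HXT6 had 25.7, 27.7 and 26.3 CPM in CX01F, against 181, 181 and 206 CPM in CX01. The strains were far apart and each group was tight. HXT6 was 7.13-fold lower in CX01F (log2 -2.83, SE 0.0509, edgeR adjusted p = 6.08e-16), a larger absolute change than in 97.4% of tested genes. HXT7, its near-identical copy, had 28.7, 28.7 and 28.6 CPM in CX01F, against 34.3, 32.7 and 31.6 CPM in CX01. The HXT7 groups were close but did not overlap, and HXT7 was lower in CX01F by a small amount (log2 -0.20, SE 0.0408, edgeR adjusted p = 0.000372).

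The coding sequences of HXT6 and HXT7 are shown because the counts of this pair depend on very few bases. In the RefSeq R64 genome of strain S288C they differ at 3 of 1713 bases (99.8% identity), written from HXT6 to HXT7 as T1632C, G1666A and T1677C with positions counted from 1 at the start codon. All 3 lie in the last part of the gene, and the first 1631 bases are the same. The stretch of 81 bases that holds them, at coding positions 1597 to 1677, lies on the minus strand of chromosome IV at chrIV:1159644-1159724 for HXT6 and chrIV:1154252-1154332 for HXT7, with the differing bases in capitals. The authors' genome build is not given in the sources used here, and the count table holds no coordinates.
HXT6: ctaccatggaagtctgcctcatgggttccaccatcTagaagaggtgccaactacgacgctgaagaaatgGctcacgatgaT
HXT7: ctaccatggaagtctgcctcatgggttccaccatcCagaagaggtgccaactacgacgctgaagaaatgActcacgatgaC

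A read from most of either gene therefore cannot be placed. Of the 1614 windows of 100 coding bases in each gene, 82 (5.08%) occur at a single place in R64. With windows of 50 or 150 bases the share was 4.93% or 5.24%. The read length, and what was done with multi-mapping reads, are not given in the sources used here. HXT6 made up 47.2%, 49.1% and 47.9% of the pair's counts in CX01F, against 84.0%, 84.7% and 86.7% in CX01. The pair was thus nearly even in every CX01F library and mostly HXT6 in every CX01 library.

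Adding the 2 copies gives a value that does not depend on how reads were split between them. The sum was 54.5, 56.4 and 54.9 CPM in CX01F, against 215, 214 and 237 CPM in CX01. The strains did not overlap, and the pair was 4.02-fold lower in CX01F (log2 -2.01, SE 0.0394, edgeR adjusted p = 1.57e-15). Before their start codons the copies are the same for 84 bases and then part. Over the 250 bases before the start their identity was 70.8%, and over 1000 bases 51.2%.

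**Figure D2:**
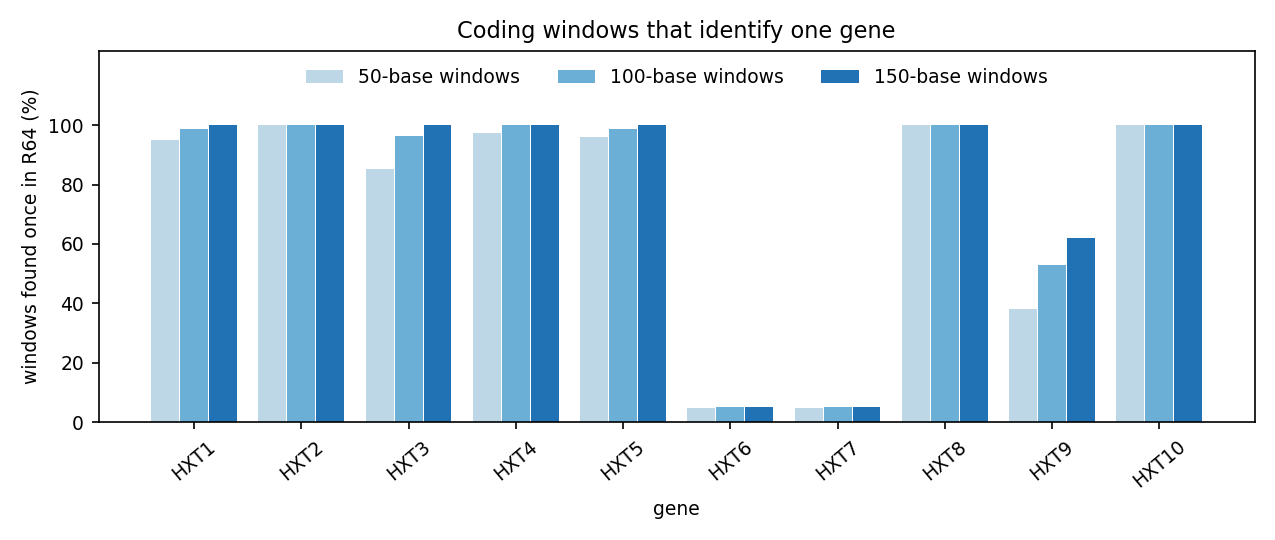
Share of coding windows of 50, 100 and 150 bases (light to dark bars, in %) that occur at a single place in the R64 genome, for each of HXT1 to HXT10. HXT6 and HXT7 stay near 5% at every window size and HXT9 reaches 61.9% at 150 bases, while the other members are at 85.1% or more.

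HXT4, an intermediate-affinity transporter, was low in both strains. It had 19.5, 20.8 and 22.6 CPM in CX01F, against 16.7, 17.5 and 17.5 CPM in CX01. The groups did not overlap but lay near each other (log2 0.28, SE 0.0574, edgeR adjusted p = 0.000315). Scaling by library size only gave HXT4 a log2 change of 0.08 (adjusted p = 0.213) and so ended its call.

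The low-affinity transporters HXT1 and HXT3 were slightly higher in CX01F. HXT1 had 23.5, 22.9 and 23.0 CPM in CX01F, against 19.4, 19.9 and 20.8 CPM in CX01 (log2 0.21, SE 0.0449, edgeR adjusted p = 0.000557). HXT3 had 45.7, 45.3 and 44.5 CPM in CX01F, against 36.8, 39.0 and 38.0 CPM in CX01 (log2 0.25, SE 0.0348, edgeR adjusted p = 8.71e-06). For both genes every CX01F library lay above every CX01 library. Their changes are about as large as the shift of -0.21 in the median log2 change of all genes that scaling by library size only brings. Under that scaling HXT1 was at 0.00044 (adjusted p = 0.993) and HXT3 at 0.04 (adjusted p = 0.242), and a fit without chromosomes XI and XV gave HXT1 0.09 (adjusted p = 0.0671).

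HXT5, the transporter of slow growth and starvation, was the most abundant of the 10 mRNAs in both strains by CPM and per kb of coding length. It had 2415, 2471 and 2427 CPM in CX01F, against 3770, 3736 and 3997 CPM in CX01. The groups were well apart, and HXT5 was 1.57-fold lower in CX01F (log2 -0.65, SE 0.0328, edgeR adjusted p = 7.78e-11). Per kb of coding length it stood above 98.2% of tested genes in CX01F and 99.5% in CX01. The change itself was of ordinary size, larger than that of 52.8% of tested genes.

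HXT8, HXT9 and HXT10 are members with no settled role in glucose uptake, and HXT9 is known from work on drug resistance. HXT9 had 13.7, 15.4 and 14.6 CPM in CX01F, against 9.13, 9.75 and 9.03 CPM in CX01. It was 1.56-fold higher in CX01F with no overlap (log2 0.64, SE 0.0624, edgeR adjusted p = 1.78e-07). Its coding sequence is 97.2% identical to that of HXT11. Aligned with the shorter pseudogene HXT12, it had 1323 identical and 51 mismatched bases. Of its windows of 100 bases, 52.9% occur at a single place in R64. Its counts may therefore hold reads of HXT11 or HXT12, or lack its own. HXT11 was lower, with 24.6, 22.8 and 22.7 CPM in CX01F, against 44.1, 45.7 and 45.0 CPM in CX01 (log2 -0.95, SE 0.0408, edgeR adjusted p = 1.3e-11). HXT11 is on chromosome XV, whose tested genes had a median log2 change of -0.87, and the part of that shift in its change was not tested.

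HXT8 overlapped between the strains, at 13.5, 14.6 and 11.8 CPM in CX01F, against 10.9, 12.3 and 14.6 CPM in CX01 (log2 0.07, SE 0.0970, edgeR adjusted p = 0.478). Single CX01 libraries moved it, to a log2 change of 0.19 (adjusted p = 0.0249) without CX01 replicate 3 and -0.02 without CX01 replicate 1. HXT10 had 20.6, 19.5 and 19.5 CPM in CX01F, against 19.3, 19.1 and 17.5 CPM in CX01. Its libraries did not overlap, yet the difference was too small to pass (log2 0.09, SE 0.0520, edgeR adjusted p = 0.105).

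**Figure D3:**
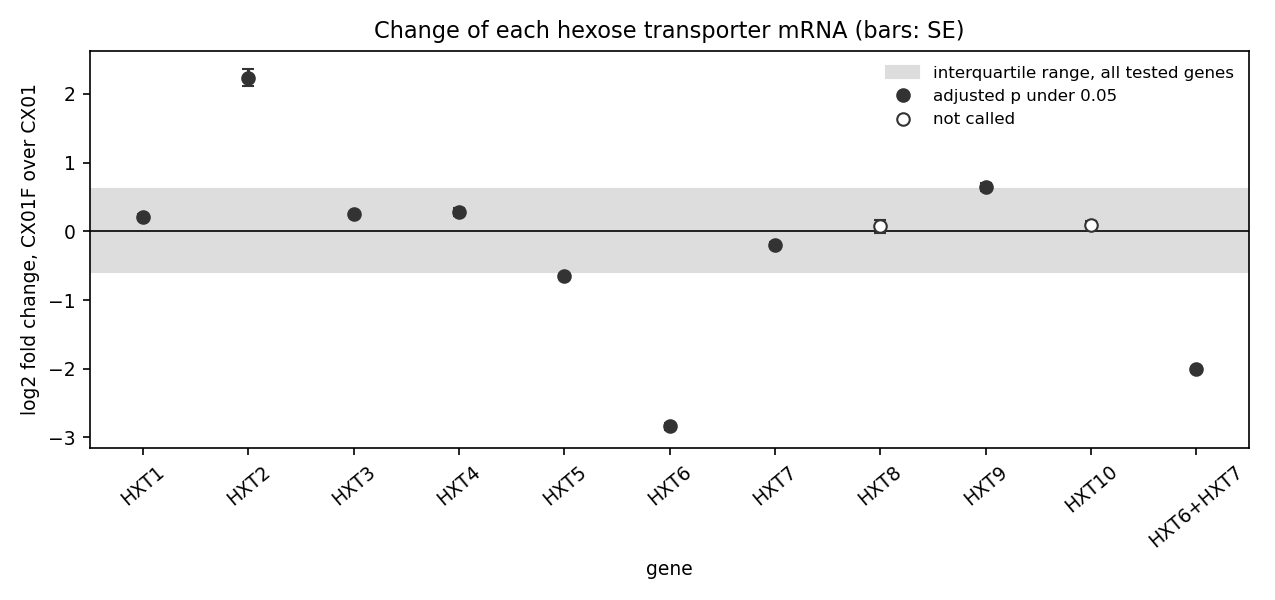
Log2 fold change of CX01F over CX01 (points, with the SE as bars) for HXT1 to HXT10 and for HXT6 and HXT7 added together; filled points have an adjusted p under 0.05, open points do not, and the grey band is the interquartile range of all tested genes (-0.60 to 0.61). HXT2 at 2.24, HXT6 at -2.83 and the sum of HXT6 and HXT7 at -2.01 lie well outside the band, and HXT5 and HXT9 lie just outside it.

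Levels were ordered per kb of coding length, an order in which the places of HXT6 and HXT7 are uncertain for the reason given above. In CX01F it was HXT5 at 1370 ± 16.5, HXT2 at 367 ± 8.63, HXT3 at 26.5 ± 0.347, HXT7 at 16.7 ± 0.0517, HXT6 at 15.5 ± 0.587 and HXT1 at 13.5 ± 0.183 CPM per kb (SD, n = 3). HXT10, HXT4, HXT9 and HXT8 followed, at 7.79 to 12.1 CPM per kb. In CX01F the libraries of HXT10 and HXT4 overlapped, as did those of HXT9 and HXT8. In CX01 the order was HXT5 at 2155 ± 79.8, HXT6 at 111 ± 8.26, HXT2 at 77.9 ± 19.8, HXT3 at 22.3 ± 0.632, HXT7 at 19.2 ± 0.794 and HXT1 at 11.7 ± 0.412 CPM per kb (SD, n = 3). The neighbours HXT1 and HXT10 overlapped in CX01.

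Summed per kb of coding length, HXT1 to HXT10 came to 1828, 1870 and 1853 CPM per kb in CX01F, against 2398, 2385 and 2509 in CX01. HXT5 held 74.1% ± 0.348 of this sum in CX01F and 88.6% ± 0.785 in CX01 (SD, n = 3). HXT2 held 19.8% ± 0.389 in CX01F and 3.22% ± 0.891 in CX01. HXT6 held 0.838% ± 0.0229 in CX01F and 4.54% ± 0.210 in CX01. Without HXT5, an alternative added after seeing the data, the direction turned: the other 9 members summed to 480 ± 8.69 CPM per kb in CX01F and 276 ± 11.7 in CX01.

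High- and intermediate-affinity transporters (HXT2, HXT4, HXT6 and HXT7) were set against the low-affinity HXT1 and HXT3 as a ratio of summed CPM per kb. No p is given for this score. The ratio was 9.91, 10.3 and 10.6 in CX01F, against 6.77, 6.55 and 5.91 in CX01, a difference of 0.68 on the log2 scale. The strains did not overlap, but the direction rests on HXT2. With HXT6 and HXT7 as the only high-affinity members the log2 difference was -2.24. Without HXT2 it was -1.89, and without HXT6 it was 1.67.

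The order, the sum and the ratio change with the length used for HXT6 and HXT7. If only reads with a single place in the genome were counted, the length that yields counts is less than the full gene. It was taken here as the 82 unique windows. Those windows lie wholly inside the coding sequence, so reads that run past its end are left out. The 3 differing bases lie near that end, so HXT6 and HXT7 may come out too high on this scale. The size of that excess was not tested. On that scale, chosen after seeing the data, HXT6 was at 324 ± 12.3 CPM per kb of unique windows in CX01F and 2308 ± 173 in CX01, and HXT5 at 1468 ± 17.6 in CX01F and 2310 ± 85.6 in CX01 (SD, n = 3), so that HXT5 and HXT6 did not differ beyond their spread in CX01. HXT7 was at 350 ± 1.08 in CX01F and 401 ± 16.6 in CX01, beside HXT2 at 391 ± 9.19 in CX01F and 82.9 ± 21.1 in CX01. HXT3, at 29.2 ± 0.382 in CX01F and 24.5 ± 0.696 in CX01, then lay below both HXT6 and HXT7. HXT6 then held 12.3% ± 0.311 of the sum in CX01F and 44.5% ± 1.38 in CX01, HXT7 held 13.3% ± 0.186 in CX01F and 7.76% ± 0.603 in CX01, and HXT2 held 14.9% ± 0.318 in CX01F and 1.61% ± 0.466 in CX01. The ratio of high to low affinity became 23.9, 25.0 and 25.0 in CX01F, against 75.8, 72.1 and 78.8 in CX01, the opposite direction from the ratio per coding length. Which of the 2 scales holds was not tested, because the counting of multi-mapping reads is unknown. With 5.08% of 100-base windows unique, an even split of shared reads would leave the 2 copies with nearly even counts. HXT6 made up 47.2% to 49.1% of the pair's counts in CX01F and 84.0% to 86.7% in CX01. The change of each gene between the strains does not depend on this length. For HXT6 and HXT7 taken singly it may still depend on how shared reads were placed, which the change of their sum does not.

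**Figure D4:**
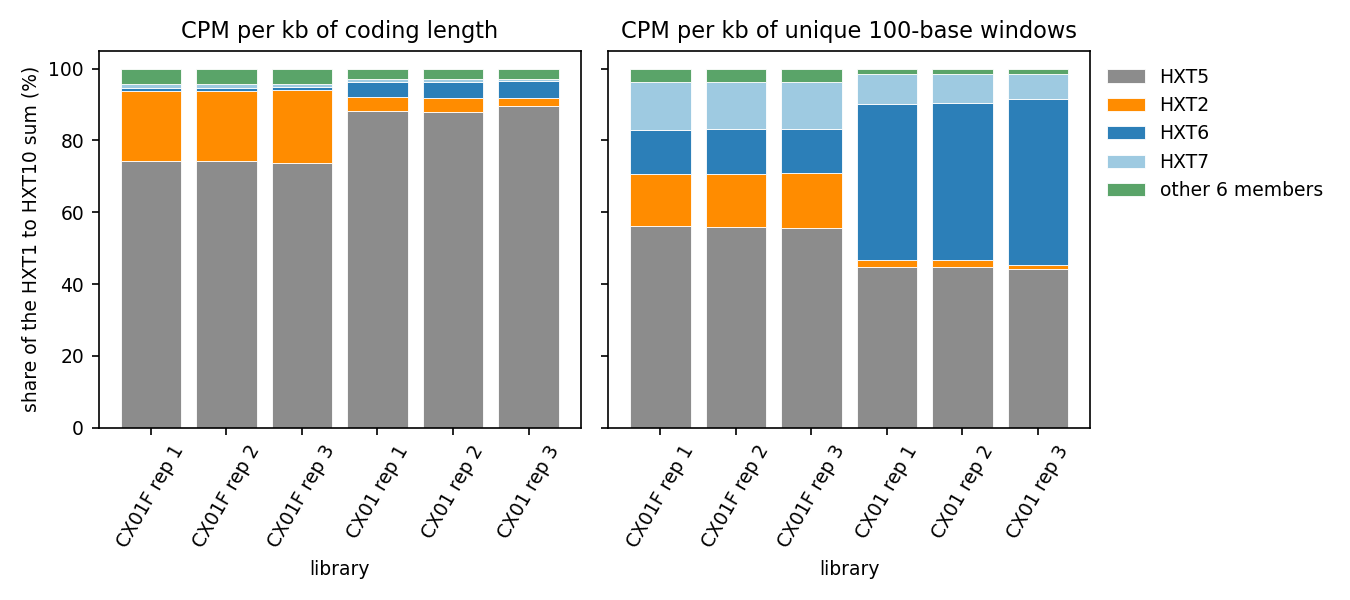
Share of the summed level of HXT1 to HXT10 (%, stacked bars) in each CX01F and CX01 library, with levels per kb of coding length (left) and per kb of unique 100-base windows (right). HXT2 (orange) holds a larger share in CX01F on both scales, and HXT6 (dark blue) is 4.54% of the CX01 sum on the left and 44.5% on the right.

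In the genome, HXT7, HXT6 and HXT3 lie near each other on chromosome IV, and HXT4, HXT1 and HXT5 on chromosome VIII. HXT2 is on XIII, HXT10 on VI, and HXT8 and HXT9 on X. No member is on XI or XV, whose tested genes had median log2 changes of -0.82 and -0.87 beside 0.02 to 0.25 on the other nuclear chromosomes. Some neighbours shared the direction of a member and some did not. HXT5 was at log2 -0.65, between HXT1 at 0.21 and YHR097C at -0.45. HXT6 was at -2.83, between HXT7 at -0.20 and YDR344C at 0.21, of which YDR344C was not called (edgeR adjusted p = 0.105). HXT2 at 2.24 had ANY1 at 0.84 beside it, HXT3 at 0.25 had SVF1 at 0.14, and HXT9 at 0.64 had YJL218W at 1.82. HXT4 at 0.28 lay between MSR1 at -0.47 and AHT1 at 0.35, of which AHT1 was not called. HXT8 at 0.07 lay between IMA5 at 0.35 and YJL213W at -0.25. Of HXT10's neighbours, YFL012W was at -2.65 and AUA1 at 1.69.

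The bases before the start codons were searched on both strands for CGGANNA, the motif bound by Rgt1. Within 1000 bases, 9 of the 10 members held it, with 41 matches in all, from 9 at HXT3 and 8 at HXT1 to none at HXT10, and 66.6% of 6002 yeast promoters of that length hold it too. From 250 bases before to 50 after the start codon, 2 members held it, beside 26.4% of 6007 promoters. The core GCGGGG bound by Mig1 was in 5 members within 1000 bases, with 6 matches, beside 10.6% of promoters. AGGGG, the stress response element, was in 8 members within 1000 bases beside 55.0% of promoters, and CCAAT, bound by the Hap complex, in 8 beside 88.8%. Within 250 before and 50 after, GCGGGG was in 0 members beside 2.58% of promoters, AGGGG in 3 beside 21.6%, and CCAAT in 6 beside 43.3%. Motifs were counted separately, overlapping matches included.

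The CGGANNA matches of HXT2, HXT6 and HXT7 are printed because HXT2 and HXT6 changed most and HXT6 and HXT7 share a coding sequence but not these sites. Each is read on the strand of the gene with the motif in capitals, either as CGGANNA or as its reverse complement, and named by the distance of its first base from the start codon. All coordinates are R64, and HXT2 lies on the plus strand, HXT6 and HXT7 on the minus strand. The HXT2 sites are at chrXIII:287489-287515, chrXIII:287639-287665 and chrXIII:287672-287698. The HXT6 sites are at chrIV:1162215-1162241, chrIV:1162208-1162234 and chrIV:1161653-1161679. The printed stretches of the first 2 overlap, while their motifs adjoin without overlap. The HXT2 site at -430 is followed in the printed bases by a GCGGGG match at -421. The HXT7 sites are at chrIV:1156636-1156662 and chrIV:1156573-1156599.
HXT2, -580: caaaatataaTTTTCCGtgaaatagat
HXT2, -430: cttatgaatcCGGAGAAaagcggggtc
HXT2, -397: ctcaataaaaTTTTCCGaaatcctttt
HXT6, -911: gcttatcagcCGGAATAcggaacaacg
HXT6, -904: agccggaataCGGAACAacggctgctg
HXT6, -349: ttgcagagaaTAGTCCGtaggcaaatt
HXT7, -724: acaaatttttTTTTCCGtaacaacaaa
HXT7, -661: ccagagccgtTTTTCCGccatatttat

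Of 16 tested genes of glucose sensing and repression, 7 were higher and 7 lower in CX01F, with a median log2 change of -0.03. This is near the background of 91.4% called, 45.5% higher and 45.9% lower. RGT1 had 103, 111 and 101 CPM in CX01F, against 373, 401 and 378 CPM in CX01, and was 3.66-fold lower (log2 -1.87, SE 0.0382, edgeR adjusted p = 2.35e-15). MTH1 had 320, 322 and 314 CPM in CX01F, against 119, 119 and 121 CPM in CX01, and was 2.66-fold higher (log2 1.41, SE 0.0255, edgeR adjusted p = 6.52e-16). STD1, the paralogue of MTH1, averaged 11.6 ± 0.423 CPM in CX01F, against 30.9 ± 0.616 CPM in CX01 (SD, n = 3; log2 -1.42, SE 0.0472, edgeR adjusted p = 6.14e-13). So the DNA-binding repressor and STD1 were lower while MTH1 was higher. No libraries overlapped, as for 91.9% of all tested genes. RGT1 is on chromosome XI and STD1 on XV, whose genes were lower as a whole, as given above.

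The glucose sensors of the plasma membrane, which resemble transporters but signal instead, also parted. SNF3, the sensor of low glucose, was at 89.3 ± 1.73 CPM in CX01F, against 127 ± 2.97 CPM in CX01 (log2 -0.51, edgeR adjusted p = 2.99e-10), and RGT2, the sensor of high glucose, at 67.0 ± 1.86 CPM in CX01F, against 52.6 ± 0.928 CPM in CX01 (log2 0.35, edgeR adjusted p = 8.02e-08). The repressors MIG1 and MIG2 were higher by log2 changes of 0.32 and 0.26, and MIG2 lost its call with library size only (0.06, adjusted p = 0.212). HXK2, a hexokinase that also takes part in glucose repression, was 7.31-fold higher, at 277 ± 4.64 CPM in CX01F, against 37.9 ± 1.59 CPM in CX01 (log2 2.87, SE 0.0329, edgeR adjusted p = 8.04e-18).

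Of the 9 other family members tested, 3 were higher and 5 lower in CX01F, with a median log2 change of -0.35, beside 91.4% of all tested genes called. GAL2, which also carries glucose, had 21850, 22193 and 21897 CPM in CX01F, against 42.3, 38.5 and 16.6 CPM in CX01. Per kb of coding length GAL2 was at 12742 ± 108 in CX01F, above HXT5 at 1370 ± 16.5, and at 18.8 ± 8.05 in CX01. GAL2 shares 71.5% of its coding bases with HXT7, and all its windows of 50 bases occur at a single place in R64. HXT14 was lower, at 2.53 ± 0.144 CPM in CX01F, against 8.49 ± 0.219 CPM in CX01 (log2 -1.74, edgeR adjusted p = 4.03e-11), as were HXT13 (log2 -0.40) and HXT17 (log2 -0.35). HXT15 was not called (log2 -0.16, edgeR adjusted p = 0.0765), but was with library size only (-0.37, adjusted p = 0.000668), without CX01 replicate 1 (-0.24, adjusted p = 0.00799) and without chromosomes XI and XV (-0.28, adjusted p = 0.00558). HXT12, a pseudogene in R64, was at log2 0.11 (edgeR adjusted p = 0.0417) and lost its call when any single library was left out, with DESeq2 (adjusted p = 0.0816) and with the replicate block (adjusted p = 0.0509). With library size only it was called in the opposite direction (log2 -0.10, adjusted p = 0.0485). HXT12 is also a close copy of HXT9 and HXT11, so its counts may hold some of their reads. HXT16 had 0 to 2 counts in each library and was not tested. It is 99.9% identical to HXT15, so their counts cannot be kept apart with confidence.

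Of 10 genes that take transporters off the membrane, 5 were higher and 3 lower, beside 45.5% higher and 45.9% lower over all tested genes, with a median log2 change of 0.05. ECM21, an arrestin-like adaptor of the ubiquitin ligase Rsp5, was higher (log2 1.34), at 503 ± 18.0 CPM in CX01F, against 199 ± 7.54 CPM in CX01. ROD1, an adaptor known for glucose-induced endocytosis of carriers, was lower (log2 -0.87), at 71.7 ± 1.09 CPM in CX01F, against 131 ± 1.27 CPM in CX01. ROD1 is on chromosome XV. DOA4, a deubiquitinating enzyme, was lower as well (log2 -1.03), at 85.4 ± 0.231 CPM in CX01F, against 174 ± 0.604 CPM in CX01.

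The list of other sugar and polyol carriers, which also holds the invertase SUC2, had 2 genes higher and 6 lower of 8. This stands beside 91.4% of all tested genes called, 45.5% higher and 45.9% lower. The list had a median log2 change of -0.63. Its alpha-glucoside permeases divided, with MAL11 and MAL31 lower and MPH2 (log2 0.87) and MPH3 (log2 0.74) higher, both of which lie under 10 CPM and were named after their values were seen. MPH2 and MPH3 are near-identical copies, so the split of counts between them is uncertain. MAL11, a maltose and general alpha-glucoside permease, was 11.2-fold lower, at 200.3 ± 2.60 CPM in CX01F, against 2249 ± 52.9 CPM in CX01 (log2 -3.49, edgeR adjusted p = 7.92e-19). MAL31, a maltose permease, was 5.41-fold lower, and SUC2, the invertase that splits sucrose outside the cell, 4.03-fold lower. Of the 4 hexose kinases, HXK2 was the only one higher and the other 3 were lower, beside the same 91.4% of all tested genes called. HXK1 was at log2 -1.65 and EMI2 at -1.70, and the median of the 4 was -1.50.

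**Figure D5:**
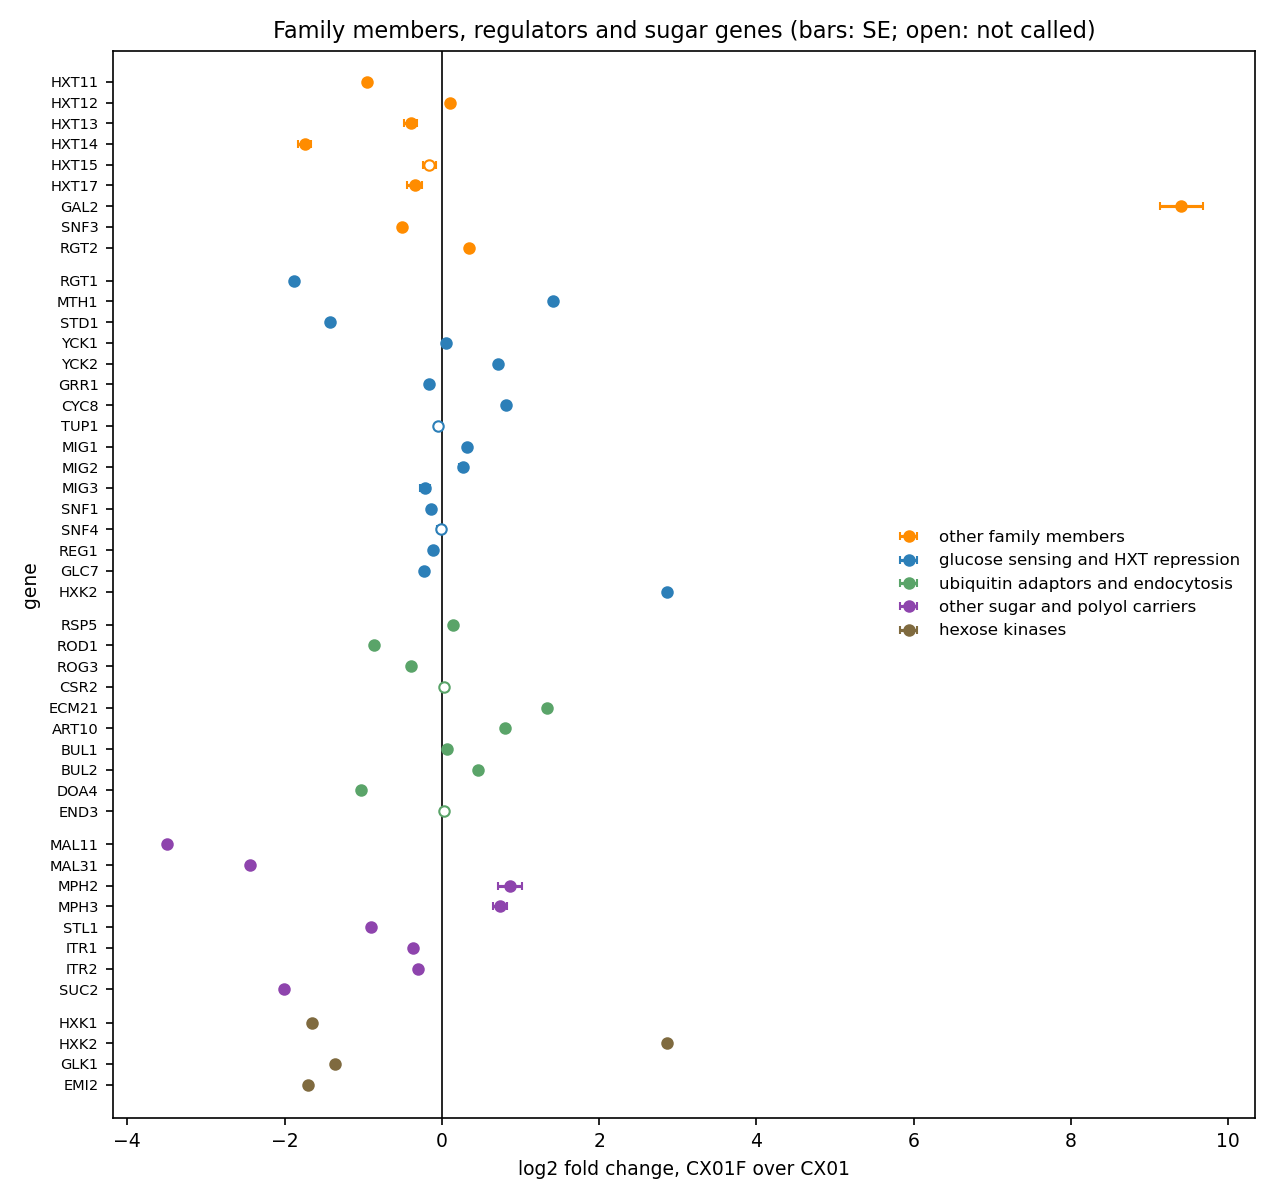
Log2 fold change of CX01F over CX01 (points, SE as bars; open points were not called) for the other family members, the genes of glucose sensing, transporter endocytosis and other sugar carriers, and the hexose kinases, coloured by list; HXK2 is in 2 lists. GAL2 lies alone at 9.40, HXK2 is at 2.87, and RGT1 and MTH1 lie on opposite sides of 0 at -1.87 and 1.41.

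Genes with the most similar pattern over the 6 libraries were taken by the Euclidean distance of log2 CPM centred on each gene's mean, among 5482 tested genes of at least 10 CPM. Nearest to HXT5 were AIM18 (distance 0.0273), CBT1 (0.0365) and CDC19 (0.0411), the last encoding the main pyruvate kinase. Nearest to HXT6 were GIP2 (0.118), MAL12 (0.122) and MAL32 (0.125), of which the last 2 encode maltases. With 3 libraries a strain, this distance mostly reflects the size of the strain difference.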

How the data were processed

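The authors deposited whole-number read counts per gene for 6 libraries, not normalized. Per the submitters' processing notes, the tools included Subread 1.4.6, featureCounts, TopHat2 2.0.12 and Cufflinks, with no roles given. Build, annotation, strand setting, read length and treatment of multi-mapping reads are not given in the sources used here. A row without a gene name (0.00877% to 0.0440% of counts) was left out. The analysis used edgeR 4.0.16 in R 4.3.3: filterByExpr (minimum count 10, minimum total 15) kept 6129 of 6400 genes, TMM set the library scale, and the strains were tested, CX01F over CX01, with glmQLFit and glmQLFTest, two-sided, with Benjamini-Hochberg adjustment over all tested genes and calls at an adjusted p under 0.05. SE is the absolute log2 change over the root of the quasi-likelihood F. CPM uses TMM-scaled library sizes and includes no pseudocount. A count of 0 allows up to 0.0475 to 0.0582 CPM before TMM scaling, counting error only. The replicates are labelled biological, so p-values measure the spread between the cultures of a strain.

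Names were matched to RefSeq R64 (6083 of 6400). Coding sequences and upstream bases come from that genome; identity is from global alignments with Biopython 1.88. Coding sequences took the place of the planned protein comparison. The promoter windows and the scale of unique 100-base windows were set after the files were seen. Alternatives used DESeq2 1.42.0, limma 3.58.1 voom, library size only, RLE, no filter, a replicate block, each library left out, HXT6 and HXT7 merged, and no genes of chromosomes XI and XV. The fit was tested on simulated data. Named were all 10 members, all other family members with counts, 6 regulators (RGT1, MTH1, STD1, MIG1, MIG2, HXK2) and, per other list, up to 3 called genes of largest change with a mean of at least 10 CPM. The neighbours were chosen by position, and 3 similar genes each for HXT5 and HXT6 by distance. Members and lists were chosen with earlier results of these data known.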

Additional observations from a re-analysis of the deposited data

How the results depend on the processing

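The 8 calls among the 10 members became 5 with library size only, which shifted the median log2 change of all tested genes by -0.21 and left 39.5% of calls higher, beside 49.7% with TMM; the lost calls were HXT1, HXT3 and HXT4. A fit without chromosomes XI and XV shifted it by -0.12. Under these 2 settings the signs of HXT8 (-0.13 and -0.043), HXT10 (-0.11 and -0.023) and HXT12 (-0.10 and -0.010) turned; of these, HXT12 was called with TMM and HXT8 and HXT10 were not. With 1 library left out, HXT8 ranged from -0.016 to 0.19. The summed HXT level, a log2 difference of -0.39, was -0.60 with library size only, -0.51 without XI and XV, 0.80 without HXT5 and -0.98 per kb of unique windows. The high-over-low affinity difference, 0.68 per coding length, was -2.24 with HXT6 and HXT7 as the only high-affinity members, -1.89 without HXT2, 1.67 without HXT6 and -1.62 per kb of unique windows. The alternatives that remove members or change the length change the sum by construction. A replicate block by number called 8 members and 5619 genes. Deviations of libraries with the same number had correlations of -0.0049, 0.195 and 0.0224, beside -0.118 to 0.101 for libraries with different numbers. With 3 libraries a strain, these values cannot show whether the numbers pair the samples. In all, 128 values of members kept direction and call, 4 lost the call, 1 gained it and 5 turned sign. DESeq2 and voom were not run for the sum and the ratio. Of the listed genes HXT16 alone had too few counts to be tested. In the same libraries its copy HXT15 had 390 to 617 counts. Whether the low count of HXT16 reflects depth or the placing of reads at HXT15 was not tested.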
